A study of Glycine max with 12 samples.

Results

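The genes described here are the 199 soybean genes, of 30459 in the deposited table, whose description names a ribosomal protein of the small subunit. They were found by searching the description of every gene, in either case of letter, for "ribosomal protein S" followed by a digit, for "40S ribosomal" or for "30S ribosomal". The 199 genes carry 46 different descriptions and 73 different best matches in Arabidopsis. The best match was used to place each gene. It put 125 genes in 27 families of the cytosolic ribosome, 29 in 14 families of the plastid ribosome and 8 in 4 families of the mitochondrial ribosome. A further 16 genes matched a small-subunit protein whose compartment was not assigned, and 21 matched a protein that is no subunit although the words of the search occur in its description. The description alone tells less: it was unclear for 90 genes, and of the 69 whose description named a cytosolic protein, 62 were placed in the cytosol by the match. All 8 genes described as plastid proteins and all 4 described as mitochondrial were placed in the same compartment by the match.

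A plant cell holds 3 kinds of ribosome. The small subunit of each one binds the messenger RNA and reads its codons, while the large subunit joins the amino acids. The cytosolic ribosome translates messages made in the nucleus, and its proteins are made in large amounts in growing tissue. The plastid ribosome is of bacterial type, makes core proteins of photosynthesis, and takes most of its own proteins from nuclear genes and the others from genes on the plastid genome. Soybean has duplicated its genome, so that most ribosomal proteins are encoded by several similar genes.

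RNA was sequenced from young soybean leaves, cultivar AG1631, of field plots near Brookings in which weeds grew or were removed, over the seasons 2008 to 2011. Each library holds newly emerged, unfolded trifoliate leaves under 2 cm, taken at the V3 stage in late June and pooled from at least 8 plants of a plot. Weedy plots held a natural stand of velvetleaf and buckwheat in 2008 (1 library, about 300 weeds per square metre), the same weeds in 2009 (1 library, about 48), flax in 2010 (2 libraries, about 600) and velvetleaf with common sunflower in 2011 (2 libraries, about 160). Control plots gave the same number of libraries in each season. Herbicides kept them clean: S-metolachlor was applied in 2008, the grass herbicide sethoxydim in 2009 and glyphosate in 2010. The controls of 2011 received glyphosate together with S-metolachlor, sethoxydim and imazethapyr. In 2010 and 2011 replicate 1 came from rows 76 cm apart and replicate 2 from rows 18 cm apart, while 2008 and 2009 had rows of 76 cm. Weeds and the absence of herbicide cannot be told apart in this design, nor can a season be told apart from its weather, weed species, sampling day or library preparation. Precipitation was 12.4, 9.9, 19.4 and 24.2 cm and temperature 23.9, 27.2, 25.6 and 26.1 °C in 2008, 2009, 2010 and 2011.

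Levels are the authors' log2 FPKM, that is fragments scaled to transcript length and library size, on a log2 scale. A difference below is a difference of log2 FPKM, so that a value of 1 is a doubling. The sorted values of all 12 libraries are identical, from 0.00 to 13.50 with a median of 3.22, so a member's difference between libraries is a difference in its rank among all genes, and a shift common to all genes cannot be seen. The files hold no counts, and the depth of the libraries is unknown. The weedy 2011 library of replicate 2 is labelled as having had a corrupt second read file. Of the 30459 genes, 30456 passed a filter on low values, all 199 members among them, and adjusted p-values are those of limma with the Benjamini-Hochberg adjustment over these 30456 genes. Whether plots of a season were independent beyond their row spacing is not stated, so the p-values measure the spread between these libraries.

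The cytosolic genes were among the higher genes of the leaf, and copies of one family could differ widely. The highest mean levels over the 12 libraries were 9.96 log2 FPKM for Glyma16g26420, an S27 gene, and 9.81 for Glyma11g12300, an S25 gene. Among those whose description names a cytosolic protein, the 2 S21 genes were highest, with 9.26 for Glyma15g15800 and 9.22 for Glyma09g05030. The lowest cytosolic genes were Glyma01g45270, an S20 copy with a mean of 0.93, and Glyma17g15660, an S24 copy with a mean of 1.63. Each of these stands beside a strong copy of its own family: Glyma03g29810, also S20, averaged 7.92 and Glyma20g37190, also S24, averaged 8.57. Of the 26 cytosolic families with several copies, 14 had copies more than 2 log2 units apart and 6 kept all copies within 1 unit. The copies most alike were 2 S8 genes, Glyma16g10700 and Glyma18g32680, with a mean of 8.10 each, and 2 S3 genes, Glyma10g26790 at 7.17 and Glyma16g33230 at 7.18. Reads of near-identical copies may have been shared or split between them in the authors' counting, so the level of 1 copy is uncertain.

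**Figure D1:**
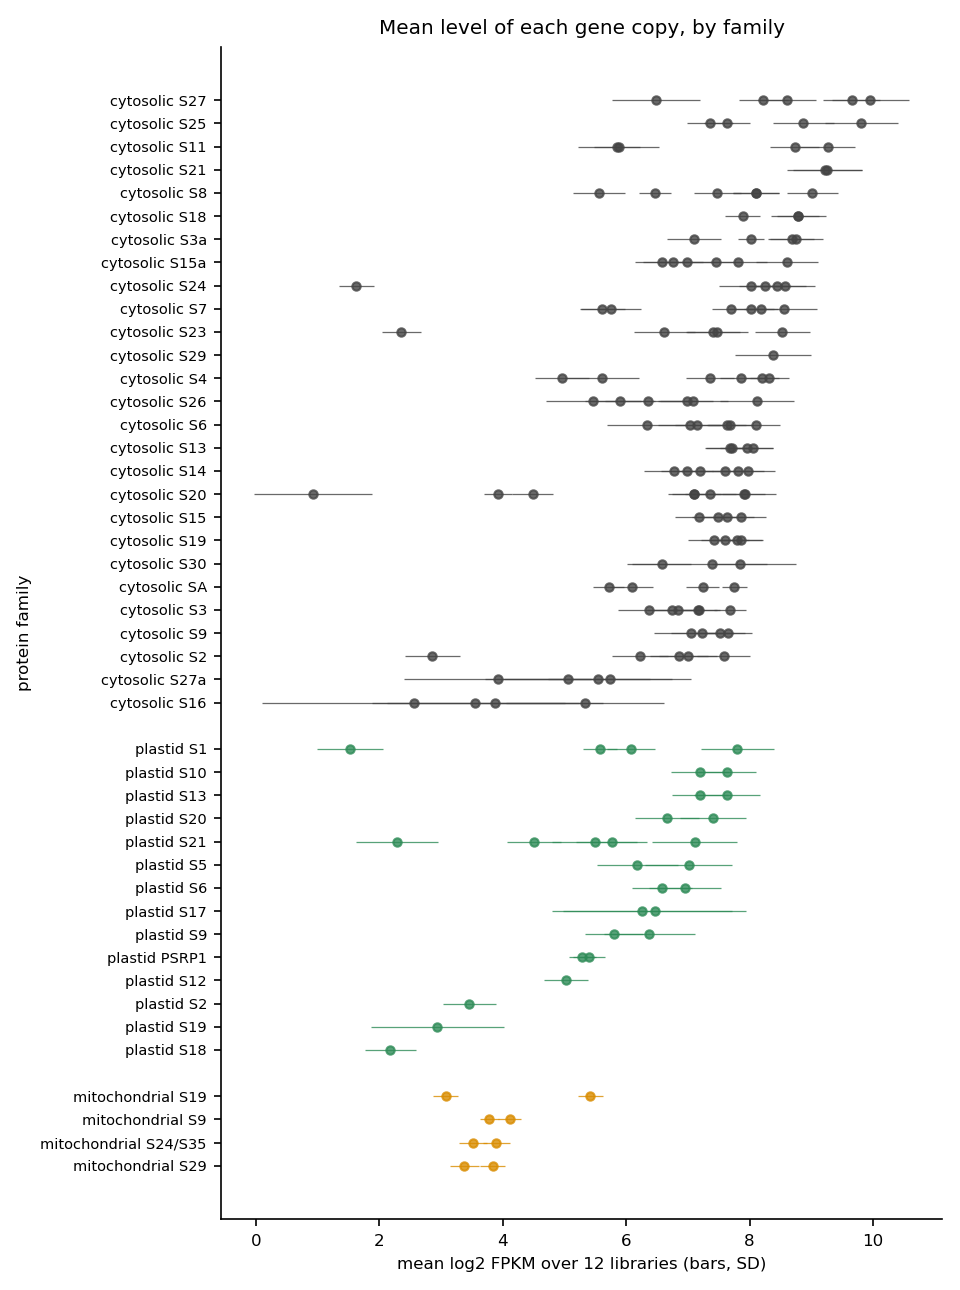
Mean level of every cytosolic, plastid and mitochondrial gene in log2 FPKM over the 12 libraries (x axis, bars give the SD), with one line for each protein family (y axis) and one point for each gene copy. Cytosolic genes reach 9.96 log2 FPKM, while the 8 mitochondrial genes lie between 3.07 and 5.42.

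Plastid genes reached less high, with means of 1.53 to 7.80 over the 29, against 0.93 to 9.96 over the cytosolic genes. The highest was Glyma17g04190 of S1. Among those described as plastid proteins, the 2 S20 genes were highest, with means of 7.41 for Glyma06g35690 and 6.67 for Glyma12g26520. The lowest by description were Glyma12g36110, at 2.18, and Glyma18g08750, at 2.94, which match the S18 and S19 genes of the plastid genome. Another gene matched to a plastid protein, Glyma07g36380 of S1, had a mean of 1.53. In all, 4 genes match plastid-genome genes (S12, S18, S19 and S2) although their names place them in the nuclear genome, so their reads may come from the plastid and their values are uncertain. The other 25 plastid genes have nuclear matches. Both PSRP1 genes, for a plastid-specific ribosomal protein, were close, with 5.40 for Glyma04g40650 and 5.29 for Glyma06g14140. Mitochondrial genes were low, with means from 3.07 to 5.42, and both ends of that range are S19 genes, Glyma08g11250 and Glyma05g28270. By description the S24/S35 genes Glyma08g10020 and Glyma05g27040 averaged 3.90 and 3.51, and the S29 genes Glyma11g29760 and Glyma18g06320 averaged 3.84 and 3.38.

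The cytosolic and the plastid medians differed in opposite directions between seasons, except that in the control libraries the plastid medians of 2011 lay on both sides of those of 2010. In 2008 the median cytosolic gene had 7.05 log2 FPKM in the weedy and 7.23 in the control library, and the median nuclear-encoded plastid gene had 7.36 and 7.37. In 2009 the cytosolic median was 7.55 in the weedy and 7.76 in the control library, and the plastid median was 6.45 and 6.41. In 2010 the cytosolic median was 8.04 and 7.77 in the weedy libraries (rows of 76 and 18 cm) and 7.82 and 7.87 in the control libraries, while the plastid median was 5.79 and 5.23 in the weedy and 6.10 and 6.03 in the control libraries. The 2 classes were thus level in 2008 and farthest apart in 2010. In 2011 the cytosolic median was 7.07 and 6.91 in the weedy and 7.22 and 7.26 in the control libraries. The plastid median of 2011 was 6.91 and 6.44 in the weedy and 6.29 and 5.82 in the control libraries. Over all 29 plastid genes, the cytosolic minus the plastid median was −0.061 in the weedy and −0.088 in the control library of 2008, and 1.56 and 1.55 in those of 2009. It was 2.44 and 2.70 in the weedy and 1.98 and 2.09 in the control libraries of 2010, and 0.47 and 0.91 in the weedy and 0.96 and 1.75 in the control libraries of 2011. The mitochondrial median stayed between 3.49 and 4.06 in all 12 libraries.

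**Figure D2:**
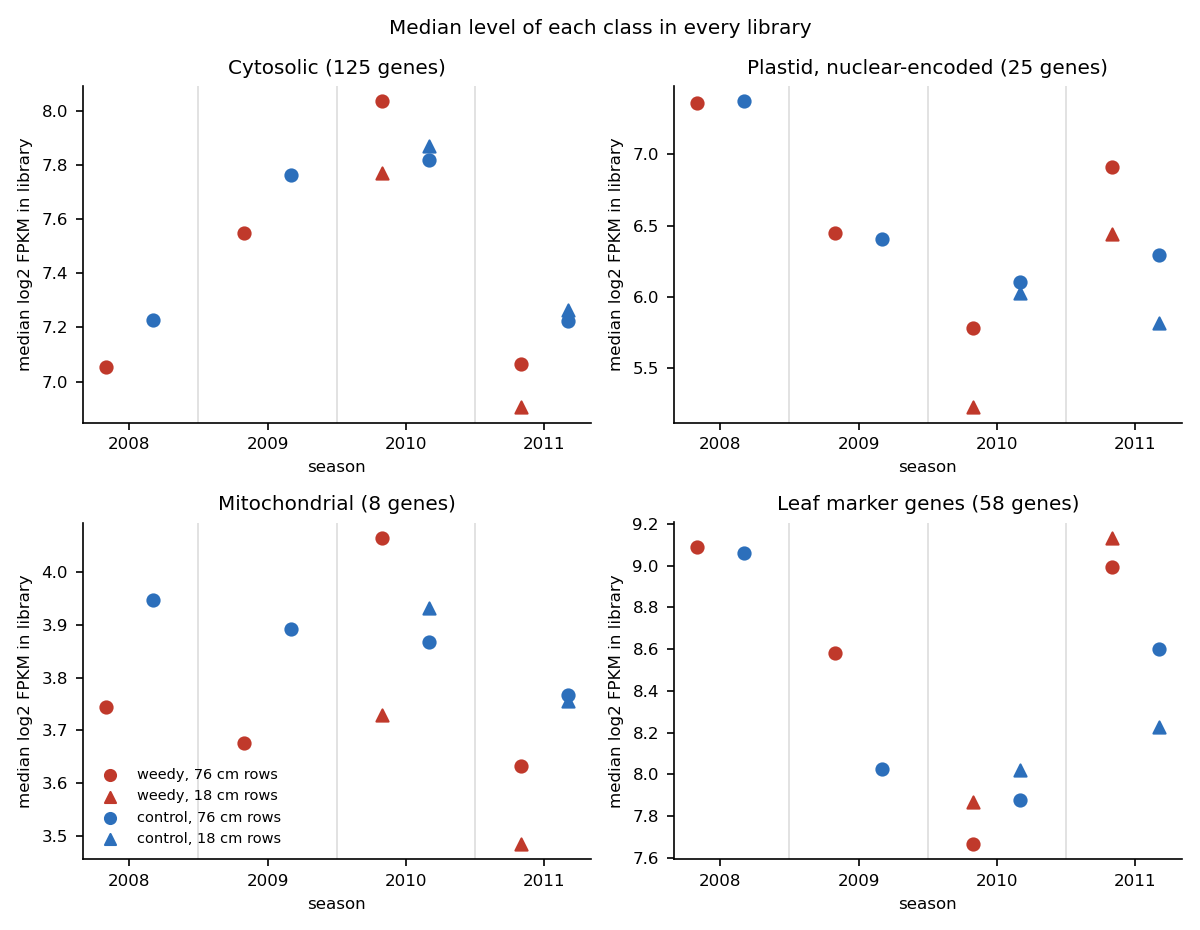
Median log2 FPKM of a class in each library (y axis) by season (x axis), with weedy libraries in red left of control libraries in blue, circles for rows of 76 cm and triangles for rows of 18 cm. The cytosolic median peaks in 2010 at 8.04, where the nuclear-encoded plastid median is lowest at 5.23, and the median of 58 leaf marker genes is lowest in 2010 as well, between 7.67 and 8.02.

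Genes that mark other traits of the sample also differed between seasons. The median of the dividing-cell markers in 2011 was near that of 2009, while their summed level was lower in 2011. The cytosolic median was lower in 2011 than in 2009. The leaf marker medians of 2011 lay below those of 2008, except that of the weedy library of replicate 2, at 9.13. The plastid medians of 2011 all lay below those of 2008 as well. The 58 leaf marker genes, mostly of photosynthesis, had medians of 9.09 in the weedy and 9.06 in the control library of 2008, 8.58 and 8.03 in 2009, 7.67 to 8.02 in the 4 libraries of 2010 and 8.23 to 9.13 in the 4 of 2011. Their summed level, on the log2 scale, was 15.87 to 15.93 in 2008, 14.96 to 15.39 in 2009, 14.35 to 15.05 in 2010 and 15.14 to 15.87 in 2011, and 0 of them were at 0. The 76 marker genes of dividing cells had medians of 3.01 and 3.33 in 2008, 4.05 and 3.97 in 2009, 4.12 to 4.21 in 2010 and 3.95 to 4.07 in 2011. Their summed level was 9.97 to 10.43 in 2008, 11.43 to 11.45 in 2009, 11.21 to 11.44 in 2010 and 10.92 to 11.28 in 2011, also with 0 genes at 0. Over the 12 libraries the medians ran from 1.87 to 2.83 for 17 vascular marker genes and from 1.91 to 3.46 for 3 senescence marker genes. The part of any of these lists in the season differences of the ribosomal genes was not tested. In whole leaves, fewer cells of a type and less RNA per cell cannot be told apart.

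In 2011 nearly the whole set of cytosolic small-subunit genes was lower than in 2010. Of 125 cytosolic genes 109 fell and 0 rose, with a median difference of −0.73, against −0.015 over all genes tested. The background is 20.7% of all genes called lower and 20.5% called higher in this comparison. Among all 199 members 135 were called lower and 13 higher. For 98 of the 125 cytosolic genes every library of 2011 lay below every library of 2010, against 19.4% of all genes. The fall reached 26 of the 27 families, and in 18 of them every copy was called lower. Family medians lay between −0.90 and −0.41. S27a was the family with no copy called. Among the 69 genes whose description alone names a cytosolic protein, 61 fell and 0 rose, with a median of −0.68, while among the 8 described as plastid proteins 2 rose and 0 fell, with a median of 0.19.

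The largest fall was in S27, a zinc-binding subunit. Its gene Glyma02g07420 had 5.81 and 5.37 log2 FPKM in the weedy and 5.87 and 6.14 in the control libraries of 2011, against 7.61 and 7.26 in the weedy and 7.15 and 7.34 in the control libraries of 2010. All 4 libraries of 2011 were more than 1 unit below the lowest of 2010. The difference was −1.54 (SE 0.17, limma adjusted p = 0.000232), or a level 0.343 times that of 2010. Its stronger relative Glyma16g26420 fell by 1.22 (SE 0.15, limma adjusted p = 0.00034). S11, an RNA-binding subunit, showed the same order: Glyma09g12420 had 5.11 and 4.84 in the weedy and 5.29 and 5.47 in the control libraries of 2011, against 6.79 and 6.74 in the weedy and 6.37 and 6.497 in the control libraries of 2010. The groups did not overlap, and the difference was −1.42 (SE 0.15, limma adjusted p = 0.00017). Its abundant copy Glyma17g11430 had 8.33 and 8.39 in the weedy and 8.66 and 8.73 in the control libraries of 2011, against 9.25, 9.26, 8.99 and 9.12 in 2010, and differed by −0.63. Weak and strong copies of S27 and S11 were lower in 2011 alike, and in both pairs the weaker copy differed by more.

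S6, the subunit phosphorylated by S6 kinase downstream of TOR, fell in all 6 of its cytosolic copies. Glyma13g24630 had 5.64 and 5.50 in the weedy and 6.11 and 6.16 in the control libraries of 2011, against 7.30 and 7.19 in the weedy and 6.79 and 6.96 in the control libraries of 2010. All libraries of 2011 were lower than any of 2010, and the difference was −1.21 (SE 0.17, limma adjusted p = 0.000623). Glyma07g31840 differed by −1.13 (SE 0.12, limma adjusted p = 0.000199). S26, which binds near the exit of the messenger RNA, was more variable: Glyma17g18200 had 5.48 and 3.92 in the weedy and 4.68 and 4.43 in the control libraries of 2011, against 6.07 and 5.12 in the weedy and 6.005 and 5.69 in the control libraries of 2010. Here the 76 cm weedy library of 2011 overlapped the range of 2010, and the difference was −1.09 (SE 0.31, limma adjusted p = 0.0171). It missed the threshold without the weedy 2011 library of replicate 2 (−0.84, limma adjusted p = 0.0506) or the weedy 2010 library of replicate 1 (−0.94, limma adjusted p = 0.0532). The copies most alike in level differed in their calls, and the difference between them was not tested: Glyma16g10700 of S8 fell by 0.55 (SE 0.12, limma adjusted p = 0.00562), while Glyma18g32680, also S8, differed by −0.025 (SE 0.16, limma adjusted p = 0.914).

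Among the plastid genes more rose than fell, and at the class median the difference lay in the weedy libraries. The median of the nuclear-encoded plastid genes was 6.10 and 6.03 in the control libraries of 2010 and 6.29 and 5.82 in those of 2011. In the weedy libraries it was 5.79 and 5.23 in 2010 and 6.91 and 6.44 in 2011. Of the 29, 10 rose and 1 fell in 2011 relative to 2010, against 20.5% and 20.7% of all genes, with a median of 0.49 (0.27 without the weedy 2010 library of replicate 2), and for 7 of them every library of 2011 lay above every library of 2010, against 18.5% of all genes. S5, a subunit of the decoding region, rose: Glyma13g24640 had 7.55 and 7.38 in the weedy and 7.14 and 6.73 in the control libraries of 2011, against 6.42 and 5.67 in the weedy and 6.54 and 6.67 in the control libraries of 2010. The groups did not overlap, and the difference was 0.88 (SE 0.23, limma adjusted p = 0.0136). S13, of the subunit's head, rose in Glyma06g11450, with 8.02 and 8.31 in the weedy and 8.00 and 7.72 in the control libraries of 2011, against 7.14 and 6.57 in the weedy and 7.27 and 7.59 in the control libraries of 2010. All libraries of 2011 stood higher than those of 2010, by 0.87 (SE 0.21, limma adjusted p = 0.00867). S1, which in bacteria helps messenger RNA onto the ribosome, rose in Glyma17g04190 by 0.81 (SE 0.20, limma adjusted p = 0.00874). Smaller rises of 0.64 in Glyma12g26520 (SE 0.23, limma adjusted p = 0.0442) and 0.39 in Glyma04g40650 (SE 0.13, limma adjusted p = 0.0358) passed the threshold with all libraries, and each was lost when single libraries of several groups were left out. The count of plastid genes called higher is set partly by single libraries of 2011: it is 19 without the control 2011 library of replicate 2, and 6 without either weedy 2011 library. Over all members the count called higher is then 22 and 8.

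The plastid gene that fell was Glyma05g02970, one of 5 genes matched to plastid S21. It had 1.54 and 1.55 in the weedy and 1.86 and 1.86 in the control libraries of 2011, against 2.47 and 3.28 in the weedy and 2.85 and 3.42 in the control libraries of 2010. All 4 libraries of 2011 were lower, by 1.30 (SE 0.18, limma adjusted p = 0.000597). The mitochondrial genes shifted less, with a median of −0.29 and 4 of 8 called lower, against 20.7% of all genes. Glyma08g10020, an S24/S35 gene, had 3.69 and 3.51 in the weedy and 3.75 and 3.77 in the control libraries of 2011, against 4.23 and 3.91 in the weedy and 3.89 and 3.95 in the control libraries of 2010. The difference was −0.31 (SE 0.10, limma adjusted p = 0.0289), with all libraries of 2011 below those of 2010. Its partner Glyma05g27040 differed by −0.37 (SE 0.12, limma adjusted p = 0.0342). Both calls were lost without the weedy 2011 library of replicate 2, where the adjusted p was 0.0919 for Glyma08g10020 and 0.0872 for Glyma05g27040.

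Genes of the same machinery that are no members were more often called lower than higher in 2011 relative to 2010. Over all genes 20.7% were called lower and 20.5% higher. Of 291 genes described as large-subunit proteins, of any compartment, 212 were called lower and 30 higher, with a median of −0.61. Of 39 genes for ribosome assembly 25 were called lower and 4 higher, and of 86 initiation factor genes 44 were lower and 4 higher. Of 30 elongation factor genes 8 were lower and 3 higher, so their share called lower was near that of all genes. Among the leaf markers 44 of 58 were called higher and 1 lower in 2011, with a median of 0.79, and among the markers of dividing cells 29 of 76 were lower and 5 higher, with a median of −0.14. The part of these in the fall of cytosolic and the rise of plastid genes was not tested.

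**Figure D3:**
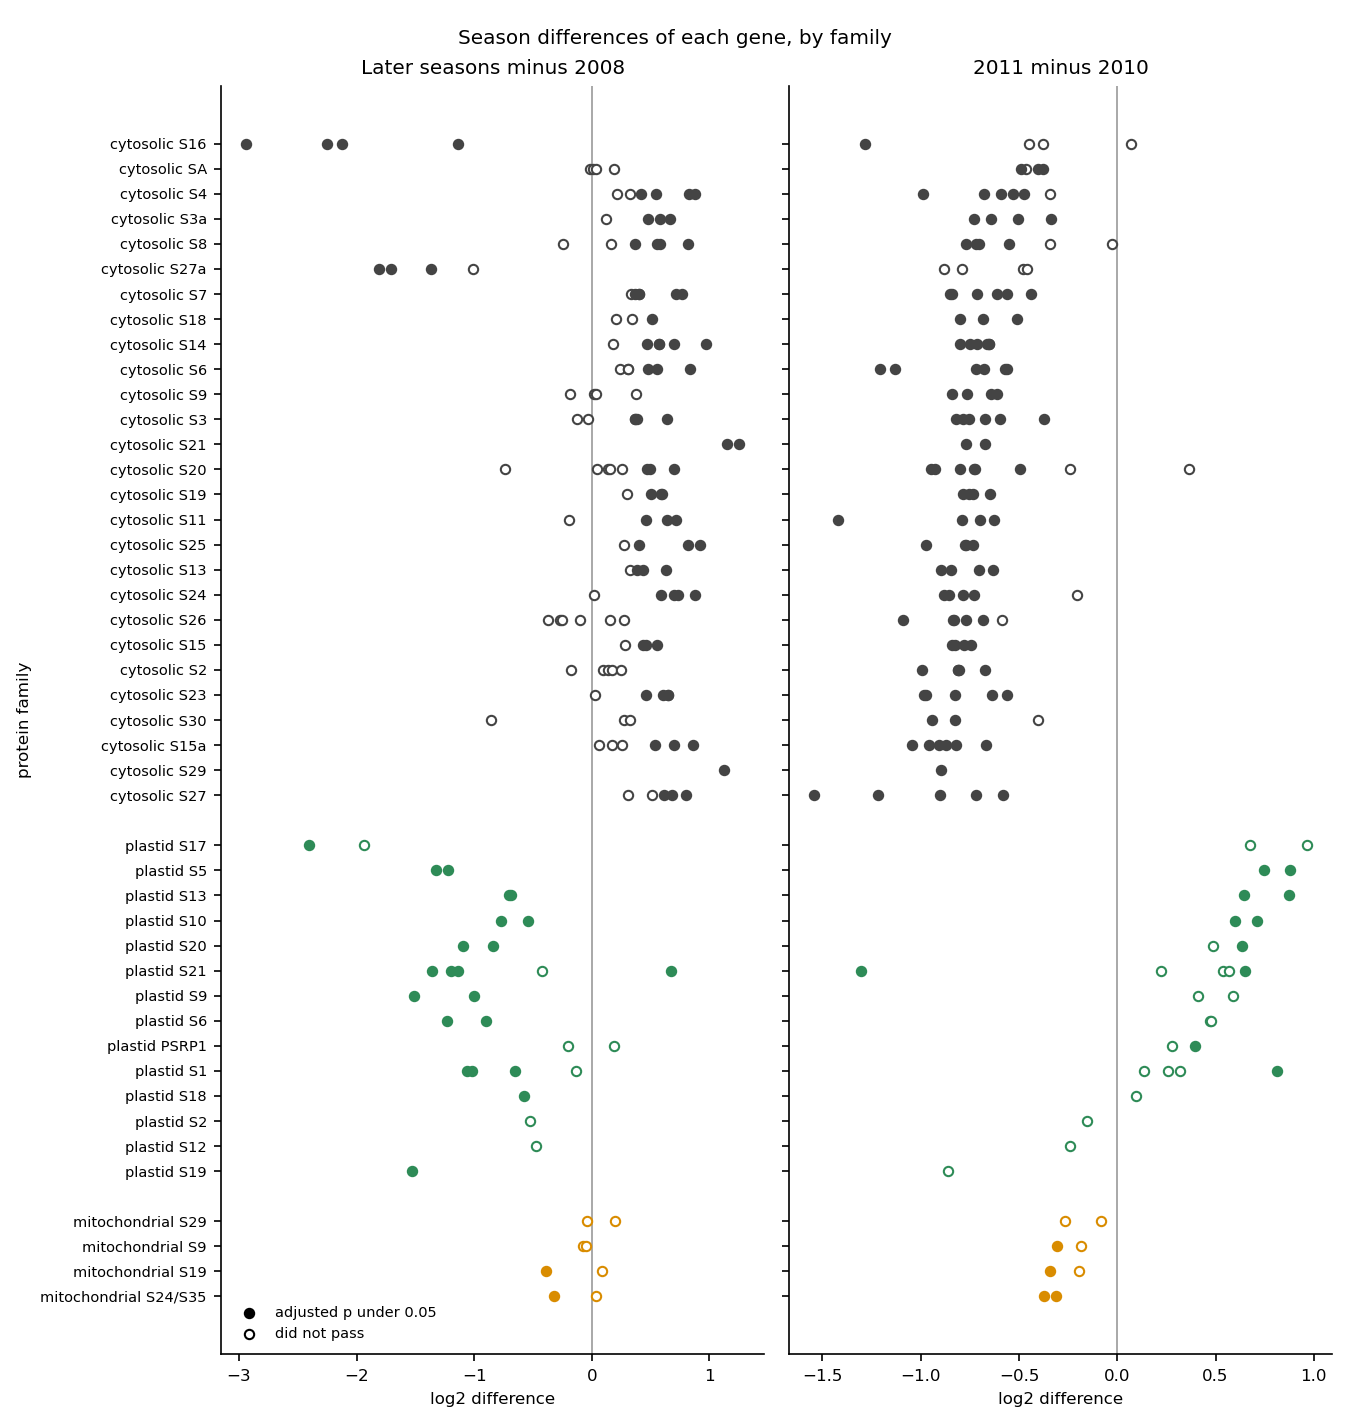
Difference in log2 FPKM of each gene between seasons (x axis), for later seasons minus 2008 on the left and 2011 minus 2010 on the right, by protein family (y axis); filled points had a limma adjusted p under 0.05. In 2011 minus 2010 the cytosolic families lie left of 0 with medians between −0.90 and −0.41, and most plastid families lie right of 0.

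Relative to 2008, the mean of 2009, 2010 and 2011 was higher for many cytosolic and lower for most plastid genes of the small subunit. At the class median the cytosolic rise lay mainly in 2009 and 2010. The cytosolic median of 2011 was 6.91 to 7.26, near the 7.05 and 7.23 of 2008. By description alone, the cytosolic median of 2011 was 7.16 and 7.11 in the weedy and 7.52 and 7.53 in the control libraries. That compares with 7.07 in the weedy and 7.26 in the control library of 2008. Of 125 cytosolic genes 63 rose and 7 fell, with a median of 0.37, against 0.020 over all genes and a background of 27.3% of all genes called higher and 24.6% called lower. Of 29 plastid genes 21 fell and 1 rose, with a median of −0.90. Of all members 82 rose and 30 fell. By description alone, 39 of 69 cytosolic genes rose and 0 fell, and 4 of 8 plastid genes fell and 0 rose, with a median of −0.55 over these 8. At least 1 copy rose in 20 of the 27 cytosolic families, and every copy rose in S21 and S29. The year 2008 has 2 libraries, and the counts depend on both: without the control 2008 library 39 members were called higher and 12 lower, and without the weedy 2008 library 31 and 13.

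S21 of the cytosolic ribosome, a protein of eukaryotic ribosomes, rose most. Glyma09g05030 ranged over 8.85 to 10.04 with a median of 9.40 in the 10 later libraries, against 8.09 in the weedy and 8.24 in the control library of 2008. Glyma15g15800 ranged over 8.93 to 9.91 with a median of 9.43 in the later libraries, against 8.22 in the weedy and 8.37 in the control library of 2008. Neither gene overlapped with 2008, and the differences were 1.25 (SE 0.15, limma adjusted p = 9.82e-05) and 1.15 (SE 0.13, limma adjusted p = 8.2e-05). S29, a small zinc-binding protein with 1 gene in the set, Glyma10g40460, ranged over 7.67 to 9.24 with a median of 8.59, against 7.38 and 7.51 in 2008, and rose by 1.12 (SE 0.19, limma adjusted p = 0.000697). Glyma15g10210 of S14 rose by 0.97 (SE 0.13, limma adjusted p = 0.000233), Glyma11g12300 of S25 by 0.92 (SE 0.17, limma adjusted p = 0.00144) and Glyma03g06440 of S4 by 0.88 (SE 0.18, limma adjusted p = 0.00243).

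Among plastid genes the S9 gene Glyma17g36580 ranged over 5.23 to 6.91 with a median of 6.15 in the later libraries, against 7.70 in the weedy and 7.64 in the control library of 2008. All 10 later libraries were lower, by 1.51 (SE 0.27, limma adjusted p = 0.00118). Glyma06g35690 of S20 ranged over 6.48 to 7.68 with a median of 7.19, against 8.25 and 8.37 in 2008, and fell by 1.09 (SE 0.21, limma adjusted p = 0.00175). Glyma12g26520 of S20 fell by 0.84 (SE 0.25, limma adjusted p = 0.0166). Glyma13g43360 of S17 fell by 2.40 (SE 0.65, limma adjusted p = 0.0107), and Glyma18g08750, the S19 gene matched to the plastid genome, by 1.52 (SE 0.45, limma adjusted p = 0.017). The last 3 calls were lost without either library of 2008, with adjusted p of 0.0589 to 0.192 for Glyma18g08750, 0.0797 to 0.0934 for Glyma13g43360 and 0.0942 to 0.131 for Glyma12g26520. Glyma05g02970, which fell in 2011, was the plastid gene that rose, by 0.67 (SE 0.20, limma adjusted p = 0.0164). Of the 8 mitochondrial genes 2 fell, a share near the 24.6% of all genes called lower, and the median was −0.045: Glyma08g10020 by 0.32 (SE 0.11, limma adjusted p = 0.0315), a call lost without either library of 2008, and Glyma08g11250 of S19 by 0.39 (SE 0.11, limma adjusted p = 0.0126). The leaf markers fell in 42 of 58 genes and rose in 0, with a median of −0.74. The dividing-cell markers rose in 53 of 76 and fell in 3, with a median of 0.83. Of the 291 large-subunit genes 121 rose and 45 fell, against 27.3% and 24.6% of all genes. The part of these markers in the result was not tested. This comparison and that of 2011 with 2010 share the libraries of 2010 and 2011.

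The 2 families that ran against the other cytosolic genes were S16 and S27a, with all 4 S16 copies and 3 of 4 S27a copies called lower after 2008. The S16 genes were picked after their values had been seen. S16 is the counterpart of bacterial S9, whose tail touches the transfer RNA, and S27a is made as a fusion with ubiquitin, so that its reads may be shared with ubiquitin genes. The summed S16 level, on the log2 scale, was 7.52 to 8.52 in 2008, 7.28 to 9.15 in 2009, 5.55 to 6.14 in 2010 and 4.44 to 5.81 in 2011. The summed S27a level was 8.36 to 9.004, 8.20 to 9.41, 5.93 to 7.41 and 5.61 to 7.18 in the same seasons. For S16 every library of 2010 and 2011 was below every library of 2008 and 2009, an order whose share over all genes was not computed.

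Glyma07g33800 of S16 had 5.19 in the weedy and 5.87 in the control library of 2008, 4.48 and 7.03 in 2009, 1.31 and 0.21 in the weedy and 1.59 and 0.81 in the control libraries of 2010, and 2.87 and 0.21 in the weedy and 0.89 and 0.23 in the control libraries of 2011. Every library of the last 2 seasons was lower than any of the first 2. Values such as 0.21 and 0.23 lie near the lowest value of the scale, so the size of the differences of this gene is uncertain. In the later seasons together it fell by 2.94 relative to 2008 (SE 0.73, limma adjusted p = 0.007). Between 2009 and 2010 the background was 0.814% of genes called lower and 0.929% called higher, and 5 cytosolic genes were called lower, all of S16 or S27a, and 1 higher. Glyma07g33800 was among them, with 2010 minus 2009 at −4.77 (SE 0.81, limma adjusted p = 0.0202). Glyma08g05290 and Glyma02g11540, also S16, differed by −2.74 (SE 0.56, limma adjusted p = 0.0424) and −1.77 (SE 0.37, limma adjusted p = 0.0462). The S27a genes called were Glyma09g02760, at −2.64 (SE 0.56, limma adjusted p = 0.0474), and Glyma15g13650, at −2.41 (SE 0.48, limma adjusted p = 0.0384). The count of 5 lower members is fragile: it lay between 0 and 7 when single libraries were left out, and was 0 without the control library of 2009 or the control 2010 library of replicate 2. The calls against 2008 are fragile too: without the control 2008 library 0 cytosolic genes were called lower in the later seasons, and without the weedy one 3. In 2008 and 2009 the weedy library was below the control library in each of the 4 S16 and 4 S27a genes, with 1 library a group. The copies share these libraries and are not independent observations, and the share of all genes with this order was not computed.

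The gene called higher in 2010 than in 2009 was Glyma07g31840 of S6. It had 7.93 and 7.68 in the weedy and 7.48 and 7.69 in the control libraries of 2010, against 6.78 in the weedy and 6.99 in the control library of 2009. All 4 libraries of 2010 were higher, by 0.81 (SE 0.15, limma adjusted p = 0.0281), and the call was lost without any one of 6 libraries. The cytosolic median of this comparison was 0.36 and the plastid median −0.22, against 0.034 over all genes, with 0 of 29 plastid genes called. The plastid median depends on single libraries: it was −0.023 without the weedy 2010 library of replicate 2, −0.079 without the weedy 2009 library, −0.34 without the control 2010 library of replicate 2 and −0.35 without the control 2009 library. Glyma02g07420 of S27 was next, at 0.93 (SE 0.21, limma adjusted p = 0.0553). By the smallest p on their sides, members of other classes that did not pass were Glyma11g29760 of mitochondrial S29 at 0.30 (SE 0.12, limma adjusted p = 0.208) and Glyma12g36110 of S18 at −0.62 (SE 0.21, limma adjusted p = 0.147).

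**Figure D4:**
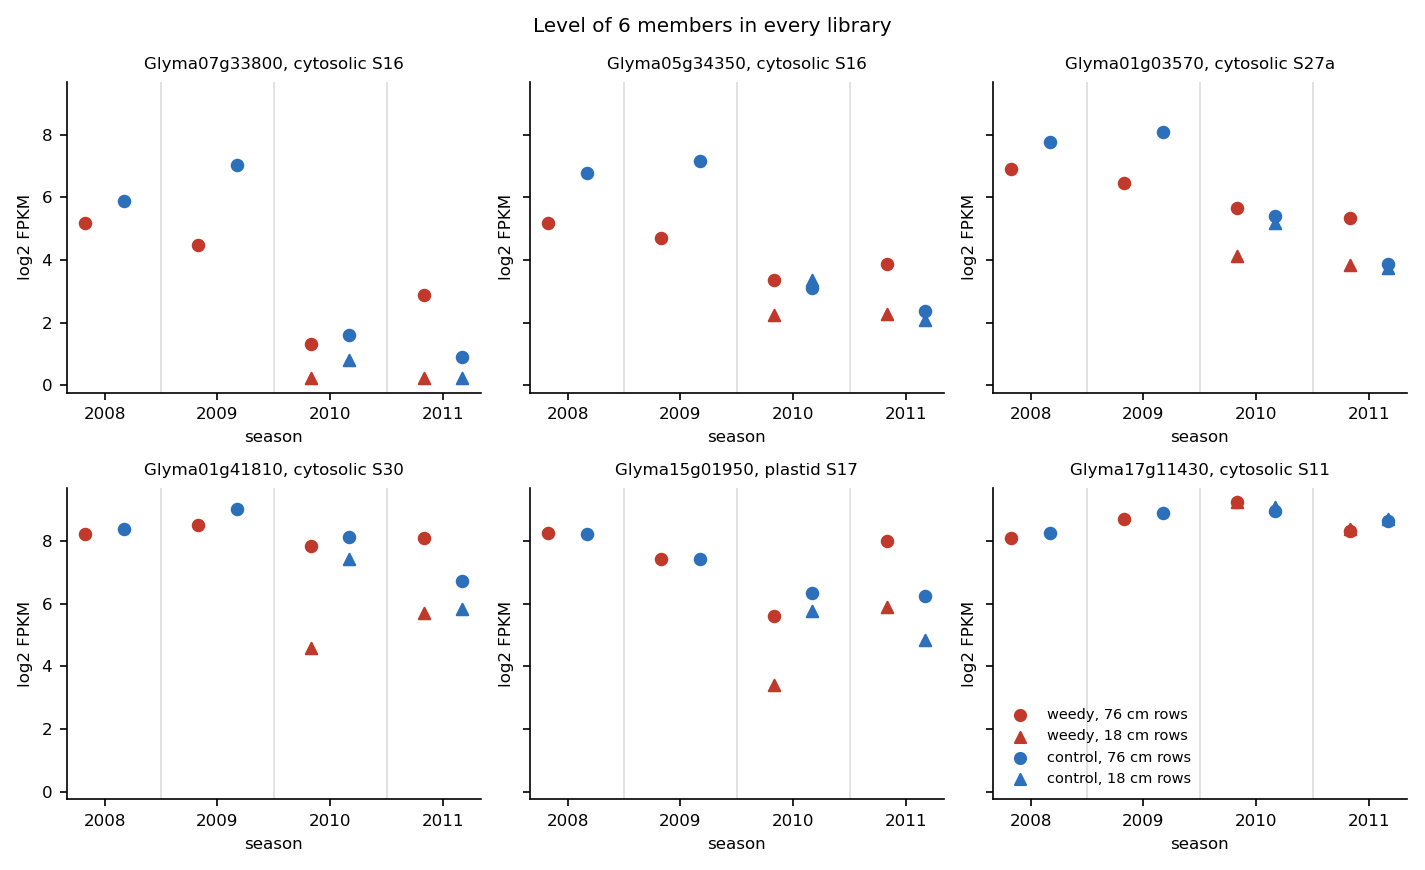
Level in log2 FPKM (y axis) of 6 members in every library by season (x axis), with weedy libraries in red left of control libraries in blue, circles for rows of 76 cm and triangles for rows of 18 cm. The S16 gene Glyma07g33800 lies between 0.21 and 2.87 in 2010 and 2011, whereas the abundant S11 gene Glyma17g11430 stays between 8.10 and 9.26 in all 12 libraries.

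Weeds against control over all 4 seasons gave no called member. Adjusted for season, 0 of the 199 members passed the threshold, as 0% of all genes did, and the smallest adjusted p among the members was 0.264. At an unadjusted p under 0.05, 1 member was higher and 13 were lower in weedy plots, against 5.42% and 5.39% of all genes. The cytosolic median was −0.14, with 122 of 125 genes below 0, and the plastid median was −0.073, against −0.0066 over all genes. Of all genes 52.1% were below 0. Without the weedy 2010 library of replicate 1 the cytosolic median was −0.21. The plastid median has no firm sign: it was 0.076 without the weedy and 0.015 without the control 2010 library of replicate 2, −0.030 without the control 2010 library of replicate 1, and −0.13 without the weedy and −0.15 without the control 2011 library of replicate 2. The 95% interval of a typical member reached 0.24 to either side, so a difference smaller than that could not be resolved gene by gene. The smallest p belonged to Glyma01g01220, an S6-like gene of unassigned compartment, at −0.30 (SE 0.09, limma adjusted p = 0.264). Its levels were 4.59, 5.05, 5.58, 5.47, 4.90 and 4.71 in the 6 weedy libraries and 4.82, 5.51, 5.49, 5.70, 5.29 and 5.30 in the 6 control libraries, in the order of seasons and replicates. The groups overlapped. Glyma18g08750 of S19 was highest on the other side, at 0.89 (SE 0.34, limma adjusted p = 0.377). Glyma01g45270 of S20 was listed at or near 0 in several libraries, with 0.07, 0.02, 0.00, 0.00, 0.99 and 1.22 in the weedy and 2.82, 0.13, 1.31, 2.02, 1.94 and 0.63 in the control libraries (limma adjusted p = 0.341). The 2 groups overlapped. Glyma11g29760 of mitochondrial S29 was at −0.21 (SE 0.08, limma adjusted p = 0.386).

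Within seasons the medians of the classes parted, without a call. In 2010, under flax, 0 of 199 members and 0% of all genes passed, with a smallest adjusted p of 0.522 among members. The plastid median was −0.51 with 29 of 29 genes below 0, and the cytosolic median was 0.11 with 94 of 125 above 0, against 0.013 over all genes. Of all genes 47.7% were below 0 and 52.3% above. Genes of a class share the same few libraries, so counts of signs, here and in the comparisons below, are not independent observations of a weed effect. Both weedy libraries lay below both control libraries in 26 plastid genes and 1 cytosolic gene, and in 29 of the 199 members, against 17.9% of all genes. At an unadjusted p under 0.05, 4 members were higher and 11 lower, against 4.19% and 4.45% of all genes, and 10 of the 11 were plastid genes. The cytosolic direction rests on 1 library: without the weedy 2010 library of replicate 1 the cytosolic median was −0.034. It was 0.23 without the weedy 2010 library of replicate 2, and 0.055 and 0.18 without the control library of replicate 1 and of replicate 2. The plastid median was −0.78 without the weedy library of replicate 1 and −0.23 without that of replicate 2. By single genes the smallest p values belonged to Glyma10g37720, matched to the assembly protein IMP3, at 0.38 (SE 0.10, limma adjusted p = 0.522), and to Glyma01g45270. Among plastid genes Glyma06g14140 of PSRP1 was at −0.37 (SE 0.14, limma adjusted p = 0.575). The 2 weedy libraries of 2010 differed between themselves by a median of 0.30 in the cytosolic and 0.53 in the plastid genes, replicate 1 being higher.

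In 2011, under velvetleaf and sunflower, the medians of both classes had the opposite sign from 2010. Again 0 of 199 members and 0% of all genes passed, with a smallest adjusted p of 0.216. The plastid median was 0.38 with 25 of 29 genes above 0, and the cytosolic median was −0.30 with 85.6% of the genes below 0, against −0.017 over all genes. Without the control 2011 library of replicate 2 the plastid median was 0.21. The pair of weedy libraries exceeded the pair of controls in 17 plastid and 0 cytosolic genes, and in 20 of all members, against 20.6% of all genes. It lay under the controls in 2 plastid and 88 cytosolic genes, and in 117 of all members, against 27% of all genes. At an unadjusted p under 0.05, 5 members were higher and 47 lower in weedy plots, against 6.01% and 6% of all genes. All 5 were plastid genes, and 39 of the 47 were cytosolic. Glyma13g24630 of S6, whose 8 values are given above, illustrates the turn: its weedy minus control difference was 0.37 in 2010 (SE 0.13, limma adjusted p = 0.575) and −0.56 in 2011 (SE 0.13, limma adjusted p = 0.221). Both weedy libraries were above the controls in 2010 and below them in 2011. Plastid S5, Glyma13g24640, was the mirror image, at −0.56 in 2010 and 0.53 in 2011. Glyma18g08750 of S19 had 3.41 and 2.58 in the weedy and 1.62 and 0.69 in the control libraries of 2011. Its weedy libraries were both higher, by 1.84 (SE 0.40, limma adjusted p = 0.216). Glyma14g08490 of plastid S9 was higher by 0.47 (SE 0.15, limma adjusted p = 0.289) and Glyma19g36250 of S23 lower by 0.54 (SE 0.15, limma adjusted p = 0.245), neither passing.

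The test of the difference between the 2 weed effects, 2011 minus 2010, called 0 members and 0% of all genes, with a smallest adjusted p of 0.279 among members. Its median was 0.89 for plastid genes, with 28 of 29 above 0, and −0.42 for cytosolic genes, with 102 of 125 below 0, against −0.033 over all genes. At an unadjusted p under 0.05, 17 members were higher and 43 lower, against 7.07% and 6.66% of all genes. Among the smallest p values were those of Glyma07g36380 of plastid S1 at 1.30 (SE 0.29, limma adjusted p = 0.279), Glyma13g24630 of S6 at −0.93 (SE 0.18, limma adjusted p = 0.279), and Glyma18g08750 of S19 at 1.96 (SE 0.57, limma adjusted p = 0.285). A typical 95% interval of a member reached 0.54 to either side. The leaf markers moved with the plastid genes in these comparisons: their median weed effect was −0.28 in 2010 and 0.51 in 2011, and their difference of effects 0.80, and their part in the result was not tested.

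**Figure D5:**
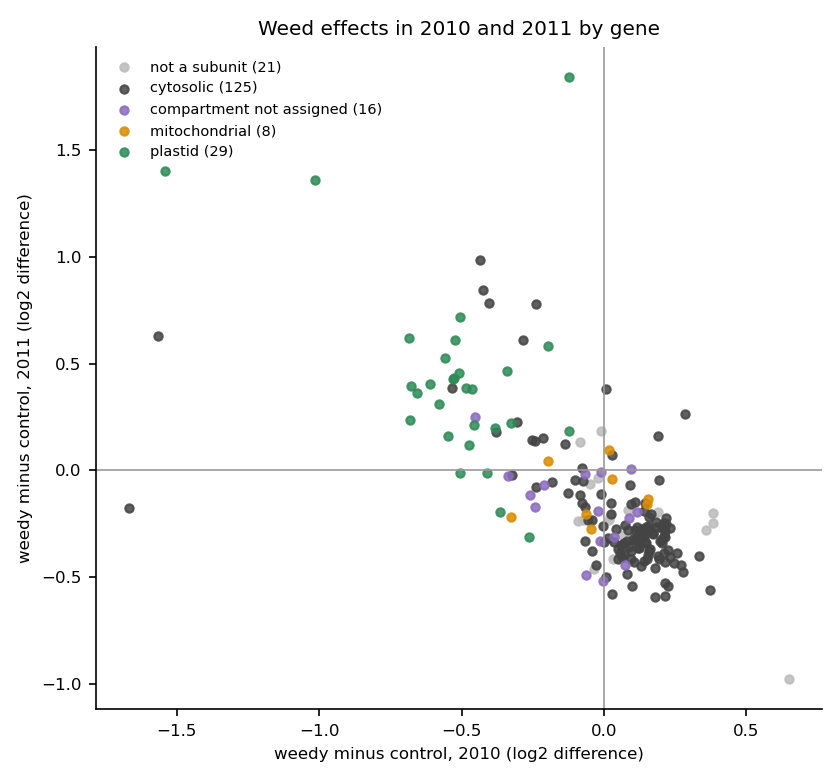
Weedy minus control difference in log2 FPKM in 2010 (x axis) and in 2011 (y axis), one point for each of the 199 members, coloured by compartment. Plastid genes lie left of 0 in 2010 and mostly above 0 in 2011, while most cytosolic genes lie below 0 in 2011; 0 members had a limma adjusted p under 0.05 in either season.

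The authors' deposited table holds their own Cuffdiff q-values for 2010 and 2011. By these q-values of the authors' deposited table, 1 of 199 members had a q under 0.05 and was higher in weedy plots of 2010, against 1.33% of all genes, and 8 were lower, against 1.13%. The higher one was Glyma15g40850, which matches the elongation factor eEF2 and is no subunit, and the 8 lower ones were plastid genes. For 2011 the authors' deposited table has 13 members higher, against 4.49% of all genes, and 7 lower, against 3.18%. The 13 were 8 cytosolic genes, namely 4 of S27a, 3 of S16 and 1 of S30, and 5 plastid genes. The 7 lower ones in the authors' deposited table were 5 cytosolic genes and 2 that are no subunits.

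Row spacing could be compared in the 8 libraries of 2010 and 2011, with rows of 18 cm against rows of 76 cm. Again 0 members and 0% of all genes passed, and the smallest adjusted p among members was 0.406. At an unadjusted p under 0.05, 1 member was higher and 30 were lower in the narrow rows, against 2.73% and 5.16% of all genes. The medians were −0.047 for cytosolic and −0.21 for plastid genes, against 0.012 over all genes. Without either weedy 2010 library they were 0.014 and −0.11, without either weedy 2011 library the cytosolic one was −0.027, without either control 2010 library they were −0.11 and −0.36, and without either control 2011 library −0.11 and −0.098. The smallest p belonged to Glyma15g01950 of plastid S17. It had 3.41 and 5.90 in the weedy and 5.78 and 4.84 in the control plots with 18 cm rows (2010 and 2011), against 5.62 and 8.00 in the weedy and 6.34 and 6.26 in the control plots with 76 cm rows. It was lower in the narrow rows in each treatment and season, with a difference of −1.57 (SE 0.27, limma adjusted p = 0.406), and the 2 groups of 4 overlapped. Glyma01g41810 of cytosolic S30 was picked after its values had been seen. It had 4.59 and 5.72 in the weedy and 7.43 and 5.83 in the control plots of 18 cm, against 7.85 and 8.10 in the weedy and 8.14 and 6.73 in the control plots of 76 cm. The widest gap was in the weedy plots, and the difference was −1.82 (SE 0.42, limma adjusted p = 0.443). Glyma04g39940 of S26 was at −0.60 (SE 0.14, limma adjusted p = 0.433). The nearest on the other side by p among cytosolic copies was Glyma03g22190 of S23 at 0.33 (SE 0.11, limma adjusted p = 0.567).

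The members of unassigned compartment and those that are no subunits had mixed courses. Of 16 members of unassigned compartment, 10 rose and 0 fell in the later seasons relative to 2008, against 27.3% and 24.6% of all genes, with a median of 0.37. In 2011 relative to 2010, 2 of them rose and 9 fell, against 20.5% and 20.7% of all genes. Glyma16g08440, an S6-like gene, fell by 1.09 (SE 0.12, limma adjusted p = 0.000236) in 2011. Glyma15g14710, matched to RFC3, rose by 0.65 (SE 0.11, limma adjusted p = 0.00129) in 2011. Glyma05g36200, an S15a copy, rose by 0.76 after 2008 (SE 0.10, limma adjusted p = 0.000189). Of the 21 members that are no subunits, 8 (38.1%) rose and 0 fell after 2008, and 1 rose and 12 fell in 2011, beside the same shares of all genes. Glyma10g37720, matched to IMP3, a protein that helps assemble the small subunit, fell by 0.91 in 2011 (limma adjusted p = 0.000856). Glyma15g40850, the eEF2 gene above, had levels from 2.07 to 3.55 in the 10 later libraries, against 1.00 in the weedy and 0.91 in the control library of 2008, and rose by 1.85 (SE 0.40, limma adjusted p = 0.00319). For weedy minus control over all seasons, Glyma17g18550, an exosome gene, was at −0.22 and Glyma06g17930, an eEF1B gene, at −0.21. Glyma17g11410, a MEE5 match, was at −0.20 and Glyma12g02340 at −0.16, and 0 of these 4 passed. Glyma12g02340 is no subunit by the words of its description, but its match is mitochondrial S9 and it is counted with the mitochondrial genes above. Glyma17g11430, Glyma17g36580, Glyma08g11250, Glyma15g14710 and Glyma15g40850 were also picked after their values had been seen.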

How the data were processed

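Leaf RNA of 12 field plots was made into TruSeq libraries and read from both ends with a HiSeq2000, per the labels' protocols. Values are log2 FPKM deposited by the authors, made with the Tuxedo suite on the Phytozome 9.0 annotation, per the file headers. TopHat, Cufflinks and Cuffdiff, each given as version 1.0, are named in the submitters' processing notes. The genome build and the strand of the libraries are not given in the sources used here, so reads of overlapping genes on opposite strands cannot be told apart. The authors' deposited p-values and q-values and log2 ratios were only copied. The sorted values are identical in all 12 libraries, as after quantile normalization.

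Of 30498 entries, 39 shared one of 19 gene names and were dropped. A gene had to reach a log2 FPKM of 1 in 3 or more libraries, and no pseudocount was added to the deposited log2 values. limma 3.58.1 (R 4.3.3, statmod 1.5.0, trend and robust variance) was fitted to all 30456 genes. The all-season weed comparison had season as a covariate, and the season comparisons had treatment. The 2010, 2011, difference-of-effects and row-spacing comparisons used the 8 libraries of those seasons. The fit was tested on simulated data with known changes and independent noise for each gene. That test does not cover genes that vary together, as the members of a class do. The members, the classes and the other lists were chosen with earlier results of these data known, and the Arabidopsis matches were sorted into compartments after the table had been opened. Members named are the largest called changes per description class and comparison, the smallest p where none was called, the highest and lowest levels, and the copies most and least alike in level; others are said to be picked later. Alternatives tried were a pseudocount, other filters, other variance models, other sample sets, a replicate block and leaving out libraries. A 0 in such a table can be a failed estimate. No sequence was at hand for the members.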

Additional observations from a re-analysis of the deposited data

Results flagged for a closer look

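Of 138 tests for a library far from the other 5 of its treatment, over 69 items, 7 passed. For independent items chance would give about 1 in 20 such groups. These items vary together, and some were named for their difference from 2008, so that share cannot be applied here. In 6 of the 7 the library was the control of 2008, the only control of its season, so library and season cannot be told apart. It stood at 2.78 log2 FPKM for Glyma05g36200, an S15a copy, where the nearest control library had 3.57. It stood at 4.44 for Glyma08g03450, also S15a, against 5.03, and at 8.37 for Glyma15g15800 of S21, against 9.30. For plastid genes the same library was high, at 8.37 for Glyma06g35690 of S20, where the nearest had 7.46, at 8.21 for Glyma13g24640 of S5, against 7.14, and at 6.62 for Glyma14g08490 of S9, against 5.74. The remaining one was the control 2011 library of replicate 2, at 2.04 for Glyma17g15660 of S24, where the nearest had 1.68.

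The weed effect on the nuclear-encoded plastid genes differed in sign between seasons. Both weedy libraries of 2010 had a lower median than both control libraries and both weedy libraries of 2011 a higher one, and the effect of 2011 minus that of 2010 was 0.91 log2 units at the median. The difference of these medians was not tested.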

How the results depend on the processing

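Of 452 recomputed counts of called members, 60 moved by more than 1.5 times. The 135 members and 109 cytosolic genes lower in 2011 stayed within that range under each alternative tried, with 114 to 139 and 97 to 112 when 1 library was left out. Leaving out 1 library gave, after 2008, 31 to 84 members higher and 12 to 32 lower, 23 to 67 cytosolic genes higher and 0 to 8 lower, and 0 to 1 plastid genes higher and 10 to 22 lower. For 2010 minus 2009 it gave 0 to 2 members higher and 0 to 7 lower, with the same numbers for cytosolic genes. For 2011 minus 2010 it gave 8 to 22 members higher, with 6 to 19 plastid genes higher and 1 to 2 lower. Without trended and robust variance 2 members, both cytosolic, were higher in 2010 than in 2009. Without the weedy 2010 library of replicate 1, 1 member was called lower in weedy plots of 2010, and 1 higher and 1 lower in the difference of weed effects. Under the other alternatives these 3 counts were 0. The cause was not tested.

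With 1 library left out some small values changed sign. The plastid weed median over all seasons ran from −0.15 to 0.076 (0.015 without the control 2010 library of replicate 2, and 0.17 without the season 2010), the cytosolic weed median of 2010 from −0.034 to 0.23, and the cytosolic spacing median from −0.11 to 0.014. The plastid weed median of 2010 kept its sign, from −0.78 to −0.23. Glyma10g10000, matched to the assembly factor NSA2, ran from −0.051 to 0.10 over all seasons and was −0.16 without 2010. In weedy minus control of 2010, Glyma08g10020 ran from −0.0094 to 0.31 and Glyma05g21370 of S26 from −0.80 to 0.045. Glyma14g38950 of S26 ran from −0.36 to 0.82 in 2011, Glyma18g06320 from −0.20 to 0.41 in the difference of effects, and Glyma06g14140 from −0.089 to 0.20 in 2010 minus 2009.

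In 2010 and 2011 replicate numbers stand for row spacing, which weedy and control plots of the same replicate share. The correlation over genes of replicate 1 minus replicate 2 between weedy and control was −0.048 in 2010 and 0.048 in 2011. Each season gives only 1 such difference per treatment, so these values cannot show whether plots were otherwise paired. With the replicate block 0 members were called in the weed comparisons. The depth of the libraries is unknown, so no floor can be given.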
